A study of Sus scrofa with 50 samples.

Results

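The nuclear-encoded subunits of the mitochondrial respiratory chain and of the ATP synthase were followed in 5 tissues of Korean minipigs (Sus scrofa). Members were chosen by name: a Swiss-Prot entry belonged if it was the best BLASTX hit of at least 1 assembled transcript at an E value of at most 1e-10, and if its protein name began with NADH dehydrogenase [ubiquinone], Succinate dehydrogenase, Cytochrome b-c1 complex subunit, Cytochrome c oxidase subunit or ATP synthase. The proteins that the mitochondrial DNA itself encodes were not members. The rule found 90 genes of 14415, with 264 transcripts, 132 from assemblies of ET animals and 132 from assemblies of L animals. Of these genes, 78 encode subunits: 34 of complex I, 4 of complex II, 7 of complex III, 17 of complex IV and 16 of complex V. The other 12 are assembly factors or related proteins that carry the same name stems (NDUFAF2, NDUFAF3, NDUFAF4, NDUFAF8, SDHAF1, SDHAF2, SDHAF3, SDHAF4, ATPAF1, ATPAF2, ATPSCKMT and DMAC2L). NDUFA4L2 was counted in complex I by its protein name, although its relative NDUFA4 was counted in complex IV. The name rule did not take in NDUFS1 or cytochrome c1 (CYC1), whose Swiss-Prot names begin otherwise.

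Respiratory complexes sit in the inner mitochondrial membrane. Complexes I and II feed electrons from NADH and succinate to ubiquinone, complex III passes them to cytochrome c, complex IV hands them to oxygen, and the proton gradient that complexes I, III and IV build drives complex V, the ATP synthase. Skeletal muscle is rich in these complexes, slow oxidative fibres more so than fast ones, and in mammals several small subunits of complex IV exist as a form of heart and skeletal muscle (COX6A2, COX7A1, COX8B) and a form of most other tissues (COX6A1, COX7A2, COX8A).

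The study compared minipigs of ET type and L type, 5 animals each (ET: S0235, S0242, S0276, S0309 and S0326; L: S0349, S0355, S0377, S0384 and S0385), and sampled backfat, brain, loin, lymph and tenderloin of every animal, giving 50 libraries. The labels do not spell out ET or L and give no age, sex, diet or treatment, so the groups are described by these labels alone. Values are TPM, the abundance of a transcript relative to all transcripts of its library, scaled for the length of the assembled transcript. Levels of different genes can be compared only as far as these lengths hold. TPM keeps no depth, so the reads behind a value are unknown and the only error given is the spread between animals.

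Markers of the tissues were checked before the members, and 45 of the 50 libraries were used. The library labelled S0355 backfat carried skeletal muscle markers at a summed 56373 TPM and adipocyte markers at 119 TPM, while the library labelled S0355 loin carried 26.3 and 12669 TPM. The library labelled S0235 lymph held the kidney tubule marker at 2156 TPM and lymphoid markers at 79.9 TPM, against lymphoid levels of 3401 to 6106 TPM in the 9 other lymph libraries. These 3 libraries were left out, as were the brain libraries of S0235 and S0355, whose myelin and astrocyte markers summed to 42707 and 68638 TPM. In the 8 brain libraries that were used these markers summed to 42.7 to 121 TPM and anterior pituitary markers to 20971 to 82994 TPM, so "brain" stands below for the label, not for neural tissue. Among the backfat libraries used, adipocyte markers summed to 493 TPM in S0377 and 1732 TPM in S0385, both L-type, and to 7200 TPM or more in the other 7. In bulk tissue, fewer cells of a type and less RNA per cell cannot be told apart.

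Subunit transcripts together made up 4.78% of all TPM in tenderloin, 3.41% in loin, 1.62% in backfat, 1.54% in brain and 1.36% in lymph. Tenderloin is the psoas muscle and loin the longissimus along the back. The summed level of the 78 subunits was 47808 ± 6976.5 TPM in tenderloin (SD, n = 10) and 34064 ± 7860.5 TPM in loin (n = 9). It was 16204 ± 3746 TPM in backfat (n = 9), 15451 ± 1356 TPM in brain (n = 8) and 13587 ± 1436 TPM in lymph (n = 9). Both muscles thus stood apart from the other tissues, whose neighbouring means lay closer together than 1 SD of the backfat value. Every complex had its highest mean in tenderloin and its next highest in loin. Complex III had means of 4866 TPM in tenderloin, 3225 in loin and 731 in lymph. Complex IV held 13776 TPM in tenderloin, 9122 in loin and 3542 in backfat, and complex V 13366, 9601 and 5069 TPM. Complex II, the smallest, held 1814 TPM in tenderloin, 1437 in loin and 484 in lymph. The 12 assembly factors and related proteins summed to far less and were flat by comparison, with means between 193 TPM in backfat and 297 TPM in brain.

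**Figure D1:**
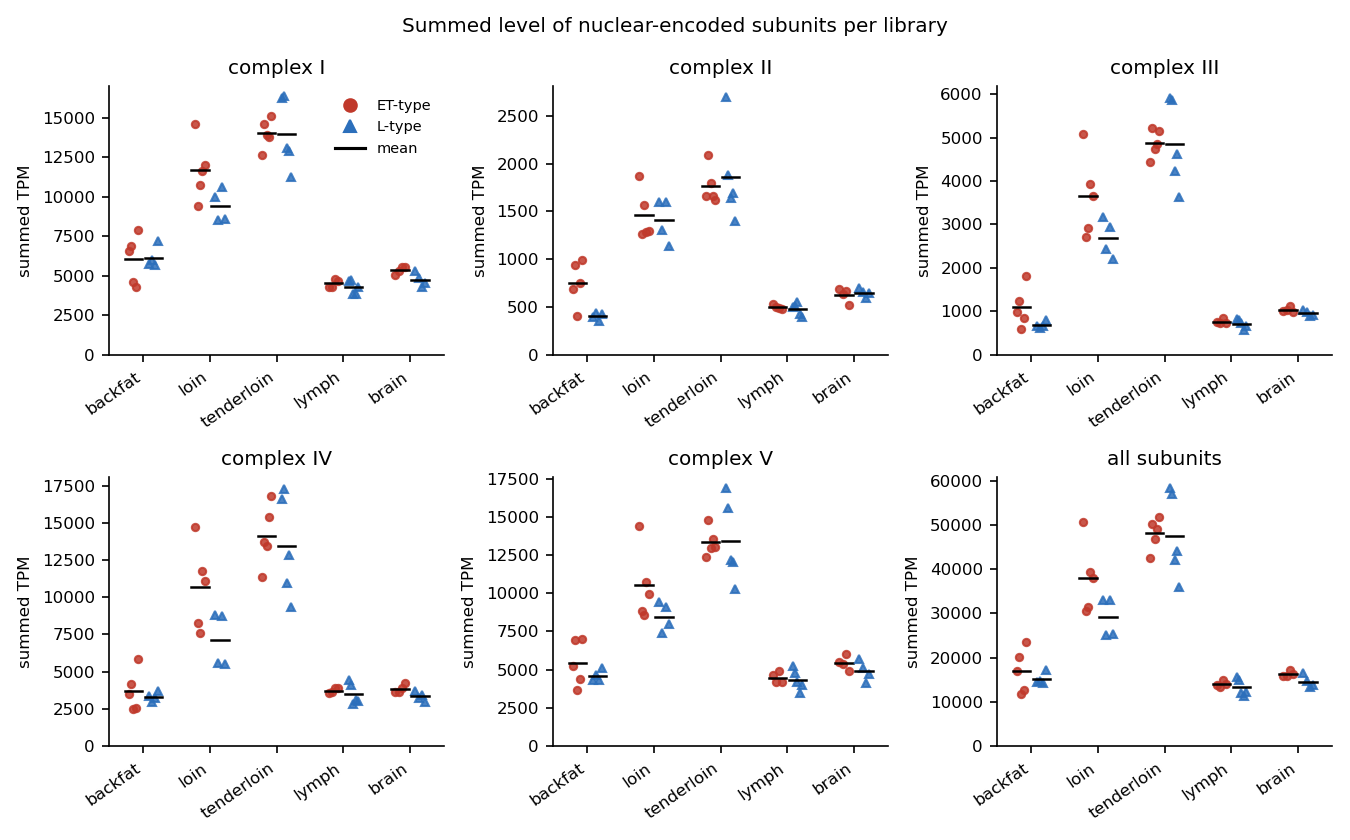
Summed TPM of the nuclear-encoded subunits of each complex (linear axes from 0) in each library, with ET animals as circles, L animals as triangles and group means as bars. Every loin and tenderloin library lies above those of the other 3 tissues in complexes I, II, III and V, while in complex IV the lowest loin library, at 5507 TPM, lies below the highest backfat library, at 5855 TPM, and the ET loin library at the top of its group is S0235, with 50693 TPM over all subunits.

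Single members differed widely in level. In tenderloin the most abundant members were COX8B at 2860 ± 823 TPM, ATP5F1E at 2524 ± 234 TPM and COX7B at 2165 ± 488 TPM (SD, n = 10). ATP5F1E is the epsilon subunit in the central stalk of the ATP synthase, and its spread of 2251 to 2938 TPM among the 10 tenderloin libraries was narrow. The same 3 genes led in loin. In backfat, lymph and brain the leading members were NDUFA7, ATP5F1E and COX6C. The value of NDUFA7, a complex I subunit, is uncertain: it was 1839.9 ± 736 TPM in backfat (n = 9), and 99.8% of it came from a transcript of 1084 bases of which 339 aligned to the protein. On the pig build Sscrofa11.1 the RefSeq gene NDUFA7 lies on chromosome 2 from 70954844 to 70961717 and shares 19 bases with RPS28, a ribosomal protein gene at 70953706 to 70954862. Without NDUFA7 the order of the tissues by summed subunits was the same, with 46994 TPM in tenderloin, 33192 in loin, 14610 in brain, 14364 in backfat and 12189 in lymph, except that brain and backfat, whose means differed by less than their spread, changed places. Among the lowest members were COX6B2, a testis form of COX6B, at 0.134 to 1.43 TPM by tissue, outside muscle COX8B, and in lymph NDUFA4L2, a relative of NDUFA4, at 1.17 TPM.

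Tissue forms of complex IV subunits made the largest contrast between muscle and the other tissues. COX8B was between 842 and 3606 TPM in the 9 loin libraries (median 2207) and between 1317 and 3943 TPM in the 10 tenderloin libraries. No backfat library exceeded 3.23 TPM, and no lymph or brain library exceeded 0.189 TPM. The muscle libraries did not overlap the others, and since libraries of each other tissue are listed at 0, no fold is given for this gene. COX6A2 was 884 ± 218 TPM in loin (n = 9) and 1429 ± 228 TPM in tenderloin (n = 10), against 24.2 ± 12.2 TPM in backfat, 21.8 ± 8.44 in lymph and 26.6 ± 8.02 in brain. A transcript with 62.1% identity to the protein, against 92.8% for the others, gave a mean of 8.42 TPM over the libraries used. COX6A2 is thus uncertain in level outside muscle. Its partner COX6A1 ran the other way, at 20.6 ± 7.36 TPM in loin and 32.8 ± 6.63 TPM in tenderloin, against 324 ± 139 in backfat, 210.3 ± 21.3 in lymph and 233 ± 67.7 in brain. Here too the muscle libraries did not overlap the others, since the highest muscle value of COX6A1 was 47.5 TPM and the lowest value elsewhere 179 TPM.

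COX7A1 shared the muscle libraries more evenly with its partner than COX6A2 and COX8B did. The gene (chromosome 6, 45519225 to 45520721) was at 158 ± 87.4 TPM in loin and 299 ± 95 TPM in tenderloin, against 3.39 to 7.85 TPM as means elsewhere. Of its transcripts, 1 with 100% identity to the protein had a mean of 57.33 TPM over the libraries used. Another, of 3629 bases with 80.9% identity, had 43.75 TPM, so the level and share of COX7A1 are uncertain. COX7A2 (chromosome 1, 90696746 to 90703407) was at 109.9 ± 37.5 TPM in loin but at 206 ± 41.4 TPM in tenderloin, beside 209 ± 74.6 in backfat, 217 ± 51.8 in lymph and 307 ± 35.6 in brain. As a share of each pair, the muscle form was 97.7% for COX6A2 in both muscles, 95.1% in loin and 95.4% in tenderloin for COX8B, and 56.6% ± 9.08 in loin and 58.1% ± 8.19 in tenderloin for COX7A1. Elsewhere the mean shares were at most 11.0% for COX6A2, whose level there is uncertain as given above, 3.62% for COX7A1 and 0.146% for COX8B. The 3 muscle forms together summed to 3262 TPM in loin and 4588 TPM in tenderloin against 25.2 to 32.4 TPM elsewhere, while the complex IV members outside these pairs summed to 8825 TPM in tenderloin, 5641 in loin and 2563 to 2806 TPM elsewhere.

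**Figure D2:**
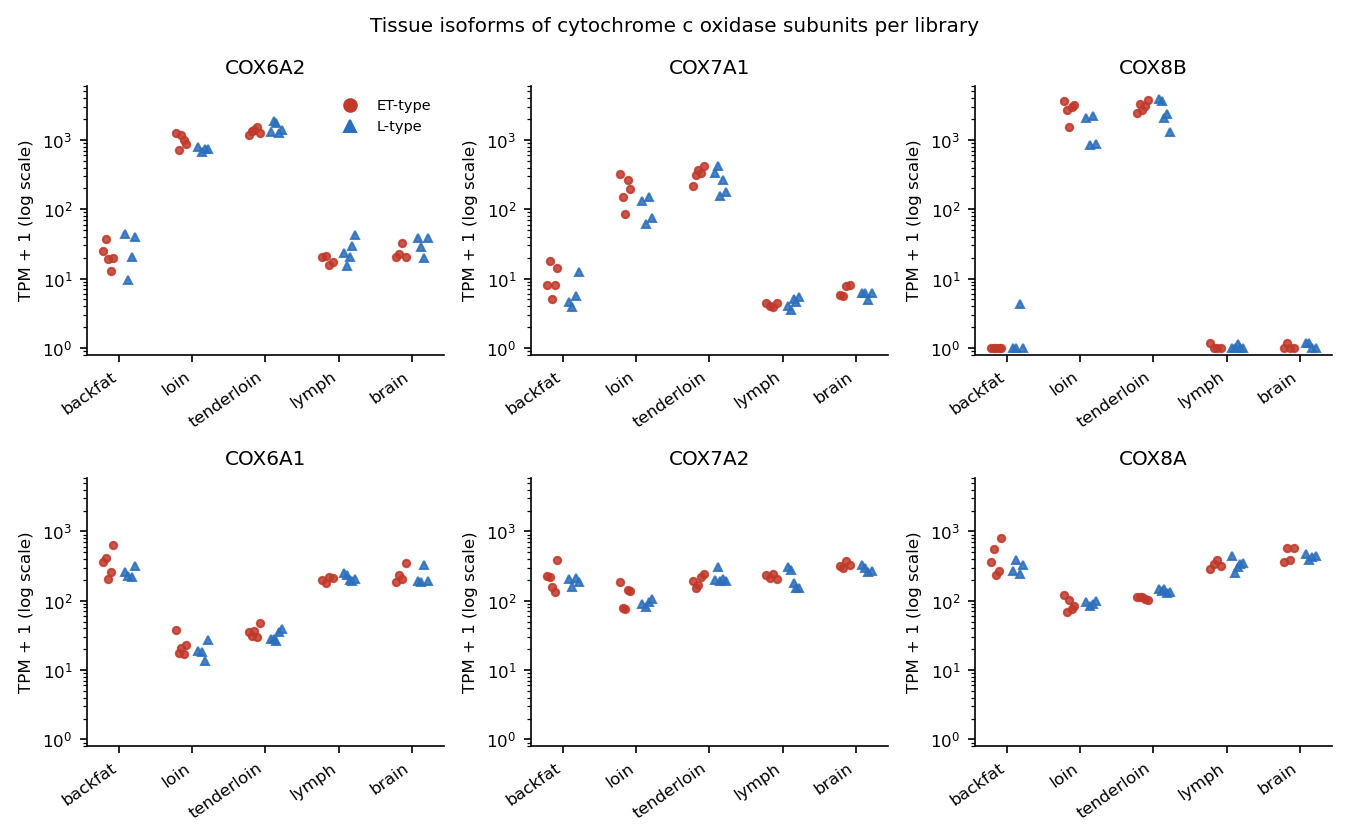
TPM + 1 (log axis) of the muscle forms COX6A2, COX7A1 and COX8B in the upper row and of their partners COX6A1, COX7A2 and COX8A in the lower row, 1 point per library, ET as circles and L as triangles. COX6A1 and COX8A lie lower in muscle than elsewhere, while COX7A2 in tenderloin, at a mean of 206 TPM, overlaps backfat and lymph and has a lower mean than brain.

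Other tissue forms followed their own patterns. COX4I2, the form of subunit 4 known from lung and oxygen-sensing cells, made up 26.7% of COX4 transcripts in backfat, 16.7% in lymph, 11.3% in brain, 3.90% in loin and 3.44% in tenderloin. Its level was 72.4 ± 34.2 TPM in backfat and 6.81 ± 2.94 TPM in loin. COX4I1, the other form of subunit 4, came to 97.8% from a transcript of 1374 bases. Of these, 267 aligned to the protein, at 82.0% identity, so the shares of COX4I2 are uncertain. NDUFA4, once assigned to complex I and now to complex IV, was 1639 ± 388 TPM in tenderloin and 866 ± 281 TPM in loin against 93 to 160 TPM elsewhere. COX7A2L, a relative of COX7A2 that joins complexes III and IV into supercomplexes, was highest in lymph at 397 ± 85.3 TPM and lowest in loin at 44.2 ± 10 TPM. The 3 genes for the identical ring subunit c of the ATP synthase also divided unevenly: ATP5MC2 gave 43.7% of their transcripts in tenderloin and 62.5 to 73.0% in the other tissues, while ATP5MC1 gave 32.5% in tenderloin, 20.9% in loin and 8.07 to 11.2% elsewhere.

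Loin and tenderloin, as 1 muscle group, were tested against each other tissue with limma on log2(TPM + 1), and genes with a Benjamini-Hochberg adjusted p under 0.05 over all genes tested were called. These comparisons share the muscle libraries and are set side by side only. Their main fits had no term for the animal, although the tissues came from the same animals. Of 89 members tested, 75 were higher and 8 lower in muscle than in backfat, where 19.6% of all genes tested were higher and 58.4% lower (78% in either direction). Against lymph, 77 were higher and 10 lower (21.6% and 61.8% of all genes, 83.4% in either direction). Against brain, 71 were higher and 12 lower (12.4% and 76.2%, 88.6% in either direction). The median log2 difference of the members was 1.31, 1.65 and 1.24 in that order, and that of all genes tested was -0.54, -0.74 and -1.30. Scaling the libraries by median ratios brought the median of all genes to -0.05, -0.04 and -0.09 and the member counts to 81 higher and 6 lower, 82 and 5, and 84 and 4. The percentages of all genes above are from the fits without this scaling. None is given beside counts with this scaling, here or below for these comparisons.

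Complexes II, III and V moved as blocks in these comparisons. All 4 subunits of complex II, all 7 of complex III and all 16 of complex V were higher in muscle than in backfat. In complex III, UQCRB, a small subunit near the ubiquinone site, was 729 ± 123 TPM in tenderloin and 473 ± 127 in loin against 74.5 ± 26.9 in backfat, a log2 difference of 3.03 (SE 0.13, adjusted p = 1.26e-23, limma). UQCRFS1, the Rieske iron-sulfur protein, differed by 2.82 (SE 0.15) from backfat, 2.73 (SE 0.15) from lymph and 2.12 (SE 0.15) from brain. SDHB, the iron-sulfur subunit of complex II, differed by 1.84, 2.02 and 1.72 (SE 0.10 to 0.11). ATP5F1A, a catalytic-head subunit of complex V, differed by 1.84 from backfat, and ATP5MC1 by 2.27 from backfat, 2.88 from lymph and 2.48 from brain.

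Complex I was higher in 31 of 34 subunits against backfat, 32 against lymph and 31 against brain. NDUFB11, an accessory subunit of the membrane arm, had the largest log2 difference of the complex in each comparison, at 4.25 against backfat, 5.15 against lymph and 3.93 against brain (SE 0.24 to 0.25). The gene (X chromosome, 41770929 to 41773879) was between 118 and 286 TPM in loin and between 187 and 306 TPM in tenderloin. In lymph it lay between 3.28 and 7.28 TPM, in brain between 8.81 and 27.3 TPM and in backfat between 3.48 and 86.4 TPM, the highest being ET animal S0326. None of these ranges reached those of muscle. Of the NDUFB11 level, 53.0% came from a transcript of 1144 bases of which 261 aligned to the protein. Its RefSeq gene shares 648 bases with RBM10, so the level of NDUFB11 is uncertain too. NDUFB9, likewise of the membrane arm (chromosome 4, 15105305 to 15113281), was 1314 ± 149 TPM in tenderloin against 96.8 ± 16.8 TPM in lymph, a log2 difference of muscle from lymph of 3.65 (SE 0.12, adjusted p = 6.84e-28, limma). The complex I subunit lower in muscle than in backfat and lymph was NDUFA7, at -1.10 and -0.76, whose value is uncertain as given above and which was at 0.18 against lymph with median-ratio scaling.

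Complex IV was divided. COX6A2 was higher in muscle by 5.59 against backfat, 5.68 against lymph and 5.36 against brain (SE 0.18 to 0.19), and COX7A1 by 4.69, 5.49 and 4.96 (SE 0.20 to 0.21). Against backfat 10 of 16 members tested were higher and 5 lower, against lymph 11 and 5, and against brain 11 and 4. The lower ones against backfat were COX6A1 at -3.52 (SE 0.15), COX4I2 at -2.83 (SE 0.23), COX7A2L at -2.05 (SE 0.11), COX8A at -1.72 (SE 0.13) and COX7A2 at -0.45 (SE 0.14). With median-ratio scaling COX7A2 was at 0.25 against backfat, 0.38 against lymph and 0.40 against brain, so its direction depends on the scaling. COX5A, a nuclear-encoded subunit on the matrix side, was higher by 2.79 (SE 0.14) against backfat, 2.46 against lymph and 2.90 against brain. The counts of assembly factors and related proteins depended on the scaling: 7 of 12 were higher and 2 lower against backfat, 7 and 4 against lymph, and 2 and 8 against brain, but with median-ratio scaling 10 and 1, 10 and 2, and 10 and 1. NDUFAF3, a factor for the early complex I peripheral arm, was lower in muscle by -1.04, -1.47 and -1.90 (SE 0.16 to 0.17), and NDUFAF4, its partner, was higher by 1.94 against backfat and 2.53 against brain (SE 0.14 in each).

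Related pathways gave a mixed picture beside the members. Of 18 genes of the tricarboxylic acid cycle and pyruvate dehydrogenase, 17 were higher in muscle than in backfat and 1 was lower, 17 and 1 against lymph, and 18 were higher against brain. Cytochrome c (CYCS), CYC1 and NDUFS1 were higher in all 3 comparisons. These counts were the same with median-ratio scaling. Assembly factors with other protein names divided into 22 higher and 12 lower of 35 against backfat, 15 and 10 against lymph, and 13 and 14 against brain, and with median-ratio scaling into 24 and 3, 26 and 4, and 29 and 6. Regulators of mitochondrial biogenesis divided into 8 higher and 6 lower of 16, then 6 and 9, then 3 and 11, and with that scaling into 12 and 2, 10 and 3, and 14 and 1. Of 9 transcripts of the mitochondrial DNA itself none was called against backfat (4 were higher with median-ratio scaling), and 8 were higher against lymph and 8 against brain. Their summed share of all TPM was 18.8% in tenderloin, 10.5% in loin and 13.5% in backfat.

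Tenderloin exceeded loin across the chain. The main fit had no term for the animal. Of 89 members tested, 62 were higher in tenderloin and none lower, where 15.4% of all genes tested were higher and 19.7% lower, 35.1% in all (limma, adjusted p under 0.05). The members' median log2 difference was 0.50 and that of all genes -0.04. The called members were 23 of 34 in complex I, 3 of 4 in complex II, 7 of 7 in complex III, 14 of 16 in complex IV, 13 of 16 in complex V and 2 of 12 among assembly factors and related proteins. The changes were of modest and similar size. The largest was that of COX7A1, whose level is uncertain as given above, at 1.07 (SE 0.25, adjusted p = 0.00261).

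Of the ATP synthase genes, ATP5MC1, a source of the proton-conducting ring, had the smallest p. It (chromosome 12, 25110540 to 25113481) was at 581, 247, 314, 300.4 and 315 TPM in ET loin and at 353, 238, 314 and 197 TPM in L loin. In tenderloin it was at 517, 713, 572, 531 and 572 TPM in ET and at 762, 717, 542, 534 and 466 TPM in L animals. The ranges overlapped only through the ET loin library of S0235, at 581 TPM. The log2 difference was 0.95 (SE 0.16, adjusted p = 0.000179, limma). ATP5MC3 was higher by 0.83 (SE 0.17, adjusted p = 0.000891), whereas ATP5MC2 (chromosome 5, 18871025 to 18879933) had a difference of -0.22 that did not pass (adjusted p = 0.0962). Within each of the 9 animals with both muscles, the share of ATP5MC1 among the 3 ring genes was larger in tenderloin, by 11.5 percentage points on average (SD 4.84). The share of ATP5MC3 was larger in 9 of 9 animals by 7.14 points (SD 2.71), and that of ATP5MC2 was smaller in 9 of 9 by a mean difference of -18.6 points (SD 7.25). Each had an exact sign-flip permutation p of 0.00391 (two-sided), the smallest that 9 animals allow, and 0.0104 after Benjamini-Hochberg adjustment over 8 shares tested. Since the shares of the 3 ring genes make up a whole in each library, these 3 results are not independent. The other 5 shares, those of COX6A2, COX7A1, COX8B, COX4I2 and NDUFA4L2, did not pass (adjusted exact p of 0.594 to 0.660); the mean difference of the COX6A2 share was -0.12 points (SD 0.78) and that of the COX8B share 0.22 points (SD 1.43).

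In complex IV, NDUFA4 was at 1418, 600, 677, 1123 and 972 TPM in ET loin and at 960, 643, 824 and 581 TPM in L loin. In tenderloin its values were 1336, 1453, 1532, 1942 and 1925 TPM in ET and 2076, 2280.2, 1278, 1461 and 1108 TPM in L animals. Loin libraries were lower with an overlap of a few values, and the log2 difference was 0.96 (SE 0.18, adjusted p = 0.000453). COX7A2 was higher in tenderloin by 0.95 (SE 0.17, adjusted p = 0.000287), and COX6A2 by 0.72 (SE 0.14, adjusted p = 0.00056). COX4I1, the general form of subunit 4, whose level is uncertain as given above, was higher by 0.75 (SE 0.15). COX8B had a difference of 0.50 that did not pass (adjusted p = 0.115), with loin values from 842 to 3606 TPM.

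In complex I the smallest p was that of NDUFB5 (chromosome 13, 117656411 to 117671515), a membrane-arm subunit, at 0.84 (SE 0.15, adjusted p = 0.000388). NDUFC2, whose level is uncertain as given below, was higher by 0.76 (SE 0.14). NDUFA9, which sits where the arms of the complex meet, was higher by 0.59 (SE 0.12). NDUFV1, a core subunit that binds NADH, was higher by 0.58 (adjusted p = 0.0057). In complex III, UQCR10 was higher by 0.76 (SE 0.17), UQCRB by 0.66 (SE 0.14) and the core protein UQCRC1 by 0.56 (SE 0.13). In complex II, SDHA, the flavoprotein, was higher by 0.38 (SE 0.13, adjusted p = 0.0293), SDHD by 0.36 (SE 0.11, adjusted p = 0.0199) and SDHB by 0.33 (SE 0.13, adjusted p = 0.0458), and SDHC at 0.20 did not pass (adjusted p = 0.408). Among the assembly factors SDHAF4 was higher by 0.51 (SE 0.15, adjusted p = 0.0125) and ATPAF2 by 0.35 (SE 0.13, adjusted p = 0.0498).

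**Figure D3:**
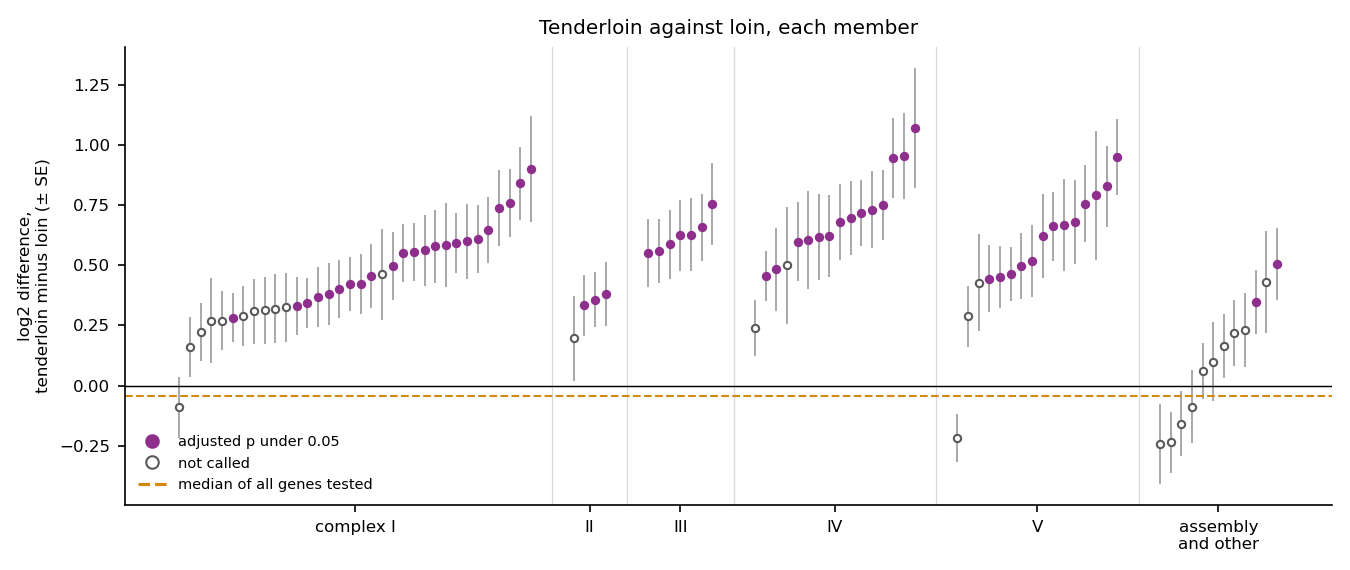
Log2 difference in TPM + 1 between tenderloin and loin with its SE for each of the 89 members tested, grouped by complex and ordered by size within each; filled points passed an adjusted p under 0.05 and the dashed line is the median of all genes tested at -0.04. The subunits of all 5 complexes lie mostly between 0.3 and 1, while the assembly factors scatter around 0.

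Single animals showed the same direction with 1 exception. The number of the 78 subunits with a higher level in tenderloin than in loin was between 71 and 77 in 8 animals and was 12 in the ET animal S0235. S0242 had summed subunits of 50346 TPM in tenderloin and 30507 in loin, and S0349 had 58414 and 32952 TPM. S0235 had 42505 TPM in tenderloin and 50693 TPM in loin, the loin value being the highest of the 9. Slow-fibre markers in that loin library summed to 43364 TPM, against 7981 to 27867 TPM in the other 8 loin libraries, and fast-fibre markers to 54053 TPM; the part of this in its subunit levels was not tested. Without S0235 the number of members higher in tenderloin was 71 of 89, and the share of all genes called in that fit is not given.

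Fibre markers moved with the muscle comparison as a whole. All 7 slow-fibre genes tested were higher in tenderloin and all 8 fast-fibre genes lower; the slow sum had a mean of 60788 TPM in tenderloin and 19685 in loin, with ranges of 40860 to 106280 and 7981 to 43364 TPM. The fast sum had means of 28009 and 75853 TPM, with ranges of 11406 to 41146 and 45643 to 115200 TPM. Endothelial markers (3 of 3) and red-cell markers (2 of 2) were also higher in tenderloin. The part of fibre type and blood supply in the subunit difference was not tested. CYCS was higher by 0.61, CYC1 by 0.65 and NDUFS1 by 0.49. Of 18 genes of the tricarboxylic acid cycle, 6 were higher and none lower, among them IDH3A at 1.12 and IDH2 at 0.62. Of 17 biogenesis regulators 6 were higher and 2 lower: PPARGC1A, a coactivator of mitochondrial biogenesis, was higher by 1.88, ESRRG by 1.39 and PPARA by 1.33, while TFAM, which packages and transcribes mitochondrial DNA, was lower by -0.48 and GABPA by -0.42. Among 11 carriers 4 were higher and 1 lower, with the ADP/ATP carriers SLC25A5 at 0.99 and SLC25A4 at 0.48 and the mitochondrial creatine kinase CKMT2 at 0.85, and with the uncoupling protein UCP3 at -0.85. Assembly factors with other names gave 6 higher and 7 lower of 34.

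The types differed in loin for 15 members. Of 89 members tested, 12 were higher in ET than in L animals and 3 were lower (5 ET and 4 L libraries), or 13.5% and 3.37% of the members, where 6.17% of all genes tested were higher and 25.2% lower, 31.4% in all. The members' median log2 difference was 0.30, against -0.22 for all genes. With median-ratio scaling the median of all genes became 0.01, that of the members 0.57, and the counts 35 higher and 1 lower, with 11.9% of all genes higher and 11.4% lower. The called higher members were 7 subunits of complex I, 3 of complex V and 1 each of complexes III and IV; the 3 lower ones were assembly factors or related proteins. With median-ratio scaling the complexes from I to V had 17, 1, 4, 5 and 7 members higher, and the assembly factors and related proteins 1 higher and 1 lower. Summed over all subunits the ET loin libraries had 37991 ± 8100 TPM (SD, n = 5; 30507 to 50693) and the L loin libraries 29155 ± 4411 TPM (n = 4; 25233 to 32996), with overlap.

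Complex I members led in this comparison. NDUFB1 (chromosome 7, 113652772 to 113659937), a small membrane-arm subunit, was at 927, 679, 578, 944 and 1004 TPM in ET loin and at 499.9, 333, 529 and 330.2 TPM in L loin. The groups did not overlap, and the log2 difference was 0.97 (SE 0.23, adjusted p = 0.0103, limma). NDUFS3 (chromosome 2, 15031147 to 15036880), a core subunit of the peripheral arm, was at 388, 274, 333, 299 and 328 TPM in ET and at 217, 169.8, 247 and 123 TPM in L loin. These did not overlap either, with a difference of 0.81 (SE 0.20, adjusted p = 0.0140). NDUFB2 was at 124, 82.1, 81.1, 117 and 128 TPM in ET and at 65.8, 59.5, 73.4 and 46.7 TPM in L loin, a difference of 0.78 (SE 0.19, adjusted p = 0.0135). NDUFB11, whose level is uncertain as given above, differed by 0.66 (SE 0.17, adjusted p = 0.0165), with all ET values from 191 TPM up and all L values from 175 TPM down. These 4 genes were called in each of the 9 fits that left out 1 animal. NDUFC2 and NDUFC1, also of the membrane arm, differed by 0.68 and 0.73, and NDUFC2 lost its call without S0309, S0326, S0377 or S0385. Their most abundant transcripts had 2538 and 3577 bases, of which 171 and 228 aligned to the protein, so both levels are uncertain. The core subunit NDUFV1 did not pass, at -0.07 (adjusted p = 0.81).

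Outside complex I, 5 subunits and 3 other members were called. COX7C, a small complex IV subunit, was higher in ET loin by 0.80 (SE 0.24, adjusted p = 0.0293), and UQCR10 of complex III by 0.82 (SE 0.25, adjusted p = 0.0314). Without S0235 their adjusted p-values were 0.0578 and 0.0549. All of COX7C came from a transcript of 5869 bases of which 189 aligned to the protein, so its level is uncertain. ATP5PF and ATP5MF of the ATP synthase differed by 0.51 (adjusted p = 0.0498) and 0.58 (adjusted p = 0.0472). ATP5PD differed by 1.24 (SE 0.41, adjusted p = 0.0383), and its low values came from 2 L animals that were low in every tissue, as described below. The alpha subunit and the catalytic beta subunit of the ATP synthase did not pass, with ATP5F1A at 0.24 (adjusted p = 0.463) and ATP5F1B at 0.39 (adjusted p = 0.223). SDHAF1, an assembly factor that matures the iron-sulfur subunit of complex II, was lower in ET loin, at 25.8, 17, 12.7, 15.9 and 12 TPM against 25.5, 30.3, 27.4 and 37.7 TPM in L loin. The ranges met only at S0235, and the log2 difference was -0.86 (SE 0.22, adjusted p = 0.0140; called in all 9 fits without 1 animal). SDHAF2, which attaches flavin to SDHA, and DMAC2L, a protein first described as a coupling factor of the ATP synthase, were lower by -0.50 (adjusted p = 0.0341) and -0.45 (adjusted p = 0.0444). The most abundant SDHAF2 transcript also carried a peptide hit to CPSF7, whose RefSeq gene overlaps that of SDHAF2, and DMAC2L was at 0.16 when only 1 transcript was kept per entry, so both are uncertain. The 4 subunits of complex II itself did not pass.

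**Figure D4:**
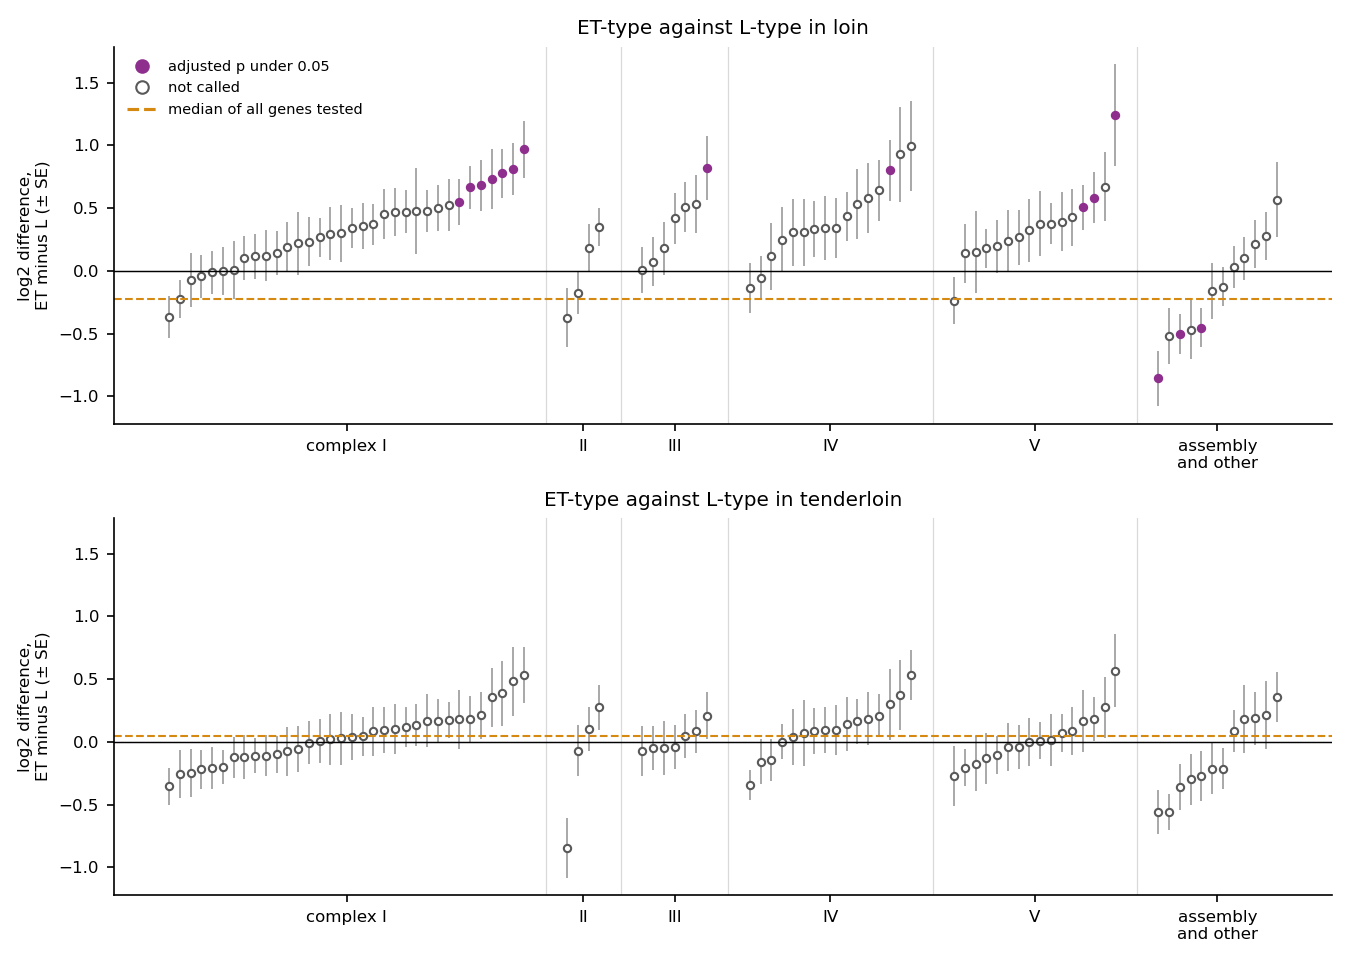
Log2 difference in TPM + 1 between ET and L animals with its SE for each of the 89 members tested, in loin (upper panel, 5 ET and 4 L libraries) and tenderloin (lower panel, 5 and 5); filled points passed an adjusted p under 0.05 and dashed lines are medians of all genes tested. In loin most subunits lie above the all-gene median of -0.22 and 15 members passed, and in tenderloin none did.

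Markers of cell content moved with type in loin. All 5 fibroblast and matrix genes were higher in ET loin, COL3A1 by 2.86 and COL1A2 by 2.41, and both red-cell genes tested were higher, HBB by 2.77. Matrix genes summed to 159 to 920 TPM in ET and 122 to 228 TPM in L loin. Of 8 fast-fibre genes 3 were higher (PVALB by 3.19, MYH2 by 0.91 and TNNC2 by 0.83) and of 7 slow-fibre genes 1 (MYL3 by 1.53). Skeletal muscle markers summed to 60530 to 77908 TPM in ET and 32256 to 61944 TPM in L loin, with ACTA1 higher by 1.33 and DES lower by -1.25. The part of these in the member calls was not tested. In the related lists, CYCS was higher by 0.52 (adjusted p = 0.0221), and 4 of 16 biogenesis regulators were lower and none higher: NRF1 by -0.79, TFB1M by -0.75, TFAM by -0.68 and PPARD by -0.64. These 4 are 25% of the list, and 25.2% of all genes were lower. With median-ratio scaling 3 of these regulators were lower. Of 18 tricarboxylic acid cycle genes only DLST passed, at -0.48, whereas with that scaling 3 were higher and none lower.

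In tenderloin no member passed, where 1.4% of all genes tested were higher in ET and 0.23% lower, 1.63% in all (limma). An unadjusted p under 0.05 was found for 7 members, and the count of all genes at that threshold is not given. The summed subunits were 48112 ± 3614 TPM in ET and 47504 ± 9809 TPM in L tenderloin (SD, n = 5 each). The smallest p-values were those of ATPAF2, SDHC and SDHAF2. ATPAF2 (chromosome 12, 60617642 to 60633210), which chaperones the alpha subunit of the ATP synthase, was at 9.27, 9.28, 8.64, 6.78 and 7.7 TPM in ET and at 13.7, 12.6, 14.5, 10.2 and 12.9 TPM in L tenderloin, with no overlap and a difference of -0.56 (SE 0.14, adjusted p = 0.0703). SDHC, a membrane anchor of complex II, was at 282, 325, 314, 218 and 181 TPM in ET and at 712, 528, 462, 389 and 319.9 TPM in L tenderloin, a difference of -0.85 (SE 0.24, adjusted p = 0.0871); without S0385 it was -0.98 and passed, at 0.0439. SDHAF2 differed by -0.56 (adjusted p = 0.115). Of the matrix genes 4 of 5 were higher in ET tenderloin as well, COL1A2 by 1.62.

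Whether the type difference itself differed between loin and tenderloin was tested as an interaction. None of 89 members passed, where 1.7% of all genes did, 0.121% with a higher and 1.58% with a lower ET-minus-L difference in loin. An unadjusted p under 0.05 (limma) was found for 9 members, and the count of all genes at that threshold is not given. The smallest p-values belonged to UQCR10 at 0.73 (SE 0.31, adjusted p = 0.168), SDHAF4 at 0.64 (SE 0.27, adjusted p = 0.170) and COX6A2 at 0.58 (SE 0.24, adjusted p = 0.173), each in the direction of a larger ET excess in loin. A difference between the muscles in the members' type effect was thus not shown.

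In backfat the 2 called members belonged to complex II. Of 88 members tested 2 were higher in ET and none lower (2.27% of the members), where 7.53% of all genes tested were higher and 1.04% lower, 8.57% in all. SDHA (chromosome 16, 79838442 to 79862956) was at 140.2, 191, 55.5, 169 and 196 TPM in ET and at 60.9, 41, 37.2 and 50.5 TPM in L backfat. SDHC (chromosome 4, 89135410 to 89169164) was at 177, 310.5, 90.5, 192 and 259 TPM in ET and at 80.4, 81.2, 73.4 and 84 TPM in L backfat. For both genes S0276 was the low ET animal, overlapping the L values for SDHA and not for SDHC. The log2 differences were 1.54 (SE 0.36, adjusted p = 0.0256) for SDHA and 1.24 (SE 0.32, adjusted p = 0.0356) for SDHC. Complex II as a whole summed to 753 ± 233 TPM in ET (SD, n = 5) and 403 ± 37.2 TPM in L backfat (n = 4). The members' median was 0.39 and that of all genes 0.29.

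Cell markers differed between the same samples. Adipocyte markers summed to 8457 to 19078 TPM in ET and 493 to 7509 TPM in L backfat, with 5 of 6 genes higher, among them LIPE by 4.54 and PLIN1 by 4.20, and 4 of 5 matrix genes were higher too. Markers of other cells moved as well: 2 of 3 macrophage genes were higher (CD68 by 2.21 and CSF1R by 1.31), 2 of 4 lymphoid genes were higher (PTPRC by 2.67 and CD3E by 1.42) and 1 lower (CD79A), and 2 of 3 red-cell genes were higher (HBA by 3.70 and ALAS2 by 1.64). Macrophage genes summed to 125 to 256 TPM in ET and 32.2 to 107 TPM in L backfat, and red-cell genes to 95 to 647 and 2.92 to 67.5 TPM. Without the L libraries S0377 and S0385, whose adipocyte markers were lowest, the differences were 1.51 for SDHA and 1.29 for SDHC, near those with all 9 libraries, but with 2 L libraries left the adjusted p-values were 0.160 and 0.172; with median-ratio scaling the differences were 1.24 (adjusted p = 0.0634) and 0.94 (adjusted p = 0.120). The part of cell content in the calls was not tested. Of the 9 fits that left out 1 animal, SDHA was called in 3 (without S0276, S0349 or S0385) and SDHC in 1 (without S0276). Without S0276 the count of called members was 14, and the share of all genes called in that fit is not given. Of 18 tricarboxylic acid cycle genes, 3 were higher in ET backfat, among them CS by 1.62 and DLAT by 1.37, and PDHA1 was lower by -0.79. Of 11 carriers tested 4 were higher, UCP3 by 3.90, and CYCS was higher by 0.95. With median-ratio scaling none of the cycle genes was higher and 1 was lower, and 1 carrier was higher and 1 lower. NDUFA7, whose value is uncertain, was at 1795, 1144, 1676, 846 and 1126 TPM in ET and 1998, 2749, 2237 and 2988 TPM in L backfat, a difference of -0.96 that did not pass (adjusted p = 0.0535).

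In lymph and brain neither a member nor any other gene passed (0% of all genes tested; limma). Of the members 2 in lymph and 8 in brain had an unadjusted p under 0.05, beside 525 and 1079 of all genes. The smallest in lymph were COX6B2 at -0.60, NDUFS8 at -0.41 and ATP5PD at 1.05 (adjusted p = 0.882 each). In brain they were SDHAF4 at 0.42, NDUFA13 at 0.32 and NDUFA7 at 0.38 (adjusted p = 0.585 each).

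The isoform shares could not be shown to differ between types, since at this number of animals no share could pass alone after adjustment over 40 exact permutation tests (two-sided). The smallest p was 0.0159, for ATP5MC2 and ATP5MC3 in backfat, which is the smallest that 5 against 4 libraries allow, and 0.317 after adjustment. The share of ATP5MC2 was 52.2 to 70.01% in ET backfat (mean 62.1%) and 71.2 to 74.9% in L backfat (mean 72.3%). That of ATP5MC3 was 21.2 to 30.9% in ET (mean 25.6%) and 13.9 to 21.1% in L backfat (mean 17.8%), and in both cases the groups did not overlap.

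ATP5PD and ATP5PO, stalk subunits of the ATP synthase, varied by animal in the same way in every tissue; they were singled out after their values were seen, and no test is given. ATP5PD (chromosome 12, 6241467 to 6247344), subunit d of the peripheral stalk that holds the catalytic head still, came to 98.1% from 1 of its 2 transcripts. It was low in the L animals S0349 and S0384 wherever they were sampled. In brain it was at 3.84 and 3.02 TPM in S0349 and S0384 and at 43.2 to 72.4 TPM in the other 6 animals. In backfat it was at 8.70 and 6.35 TPM, and at 41.4 to 133 TPM in the other 7. In lymph it was at 13.0 and 6.72 TPM beside 34.2 to 64.4 TPM in 7 others. In loin it was at 63.5 and 45.3 TPM beside 126.2 to 410.2 TPM, and in tenderloin at 179 and 103 TPM beside 212 to 377.3 TPM. The gap between these 2 animals and the lowest other was thus widest in brain, at 11.2-fold, and narrowest in tenderloin, at 1.19-fold.

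ATP5PO (chromosome 13, 197509331 to 197519530), the stalk subunit known as the oligomycin sensitivity-conferring protein, was lowest in the ET animal S0326 in all 5 tissues. It was at 138 TPM in brain beside 239 to 417 TPM in the other 7 animals, at 149 TPM in lymph beside 236 to 484, and at 237 TPM in backfat beside 294 to 448. In tenderloin it was at 793 TPM beside 1008 to 1913, and in loin at 611 TPM beside 641 to 1133. The share of the spread within tissue and type that went with the animal was 81.4% for ATP5PD and 74.1% for ATP5PO, the highest among 89 members, whose median was 32.8%; over 13448 genes it was 30.4%. NDUFB1 at 58.9% and SDHAF1 at 58.0%, both called between types in loin, came next. No other member had the same animal lowest in every tissue.

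**Figure D5:**
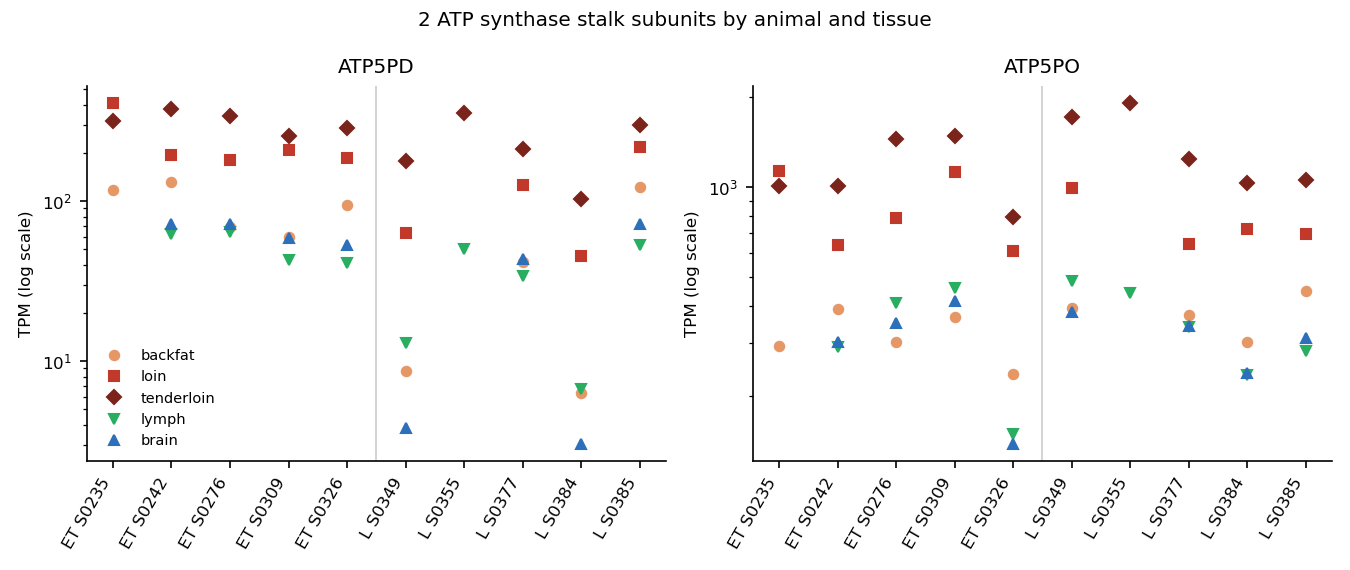
TPM (log axes) of ATP5PD and ATP5PO in each animal, 1 symbol per tissue, with ET animals left of the grey line and L animals right of it. S0349 and S0384 are low for ATP5PD in every tissue sampled, down to 3.02 TPM in brain, and S0326 is the lowest for ATP5PO in all 5 tissues.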

How the data were processed

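RNA sequencing of 50 libraries (5 tissues of 5 ET and 5 L minipigs) was used. Per the labels' protocols, TRIzol was used for total RNA and a TruSeq stranded mRNA kit for libraries. The authors deposited TPM for 57085 assembled transcripts and a table of BLASTX hits. The submitters' processing notes name Trimmomatic 0.36, Salmon 1.10.0 and the build Sscrofa11.1. TPM carries no depth.

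TPM were summed per Swiss-Prot entry over hits at an E value of at most 1e-10, without 2439 repeat or retroviral hits and 23 hits outside animals, which left 32158 transcripts and 14415 genes holding 80.3 to 93.0% of TPM. A gene name stands for the nearest described protein (median identity of member transcripts 92.6%). Coordinates are those of RefSeq on Sscrofa11.1 for the 73 members that matched 1 gene by symbol, of which 21 overlap another gene. Such genes cannot be told apart by read position here, and near-identical copies can divide reads.

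limma 3.58.1 in R 4.3.3 was fitted to log2(TPM + 1) with a mean-variance trend, two-sided, for genes whose TPM averaged 1 or more in the libraries fitted; p-values were adjusted by Benjamini-Hochberg over all genes tested and called under 0.05. Log2 differences on this scale understate the change of low genes. Types were compared on the libraries of 1 tissue at a time; the muscle comparison and its interaction with type used both muscles, and the other tissue comparisons used all 45. Isoform shares were tested by exact permutation in Python 3.11.15 with scipy 1.17.1. The fits were tested on simulated data with independent libraries, which cannot show an effect of tissues that share an animal. ET and L animals are different animals, so types are not paired. Tissues share animals, per the labels: deviations of loin and tenderloin correlated at a median of 0.466 in the same animal (9 pairs) and -0.147 between animals of a type (36 pairs). Animals are the replicates for type. The main fits between tissues and of the interaction had no term for the animal. Libraries of the same animal thus entered them as independent, and the fits with the animal as a block are alternatives.

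Members named are the tissue isoforms, core subunits, up to 4 called members per complex by smallest p, up to 8 by largest change in each direction, the 3 smallest p where fewer than 3 were called, and the 3 highest and lowest per tissue. Alternatives were a pseudocount of 0.1, median-ratio scaling, no filter, a mean TPM of at least 5, 1 transcript per entry, an E value of at most 1e-50, all 50 libraries, the animal as a block and each animal left out. Members, lists and left-out libraries were chosen with earlier results of these data known.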

Additional observations from a re-analysis of the deposited data

Results flagged for a closer look

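Of 74 groups of 4 or 5 libraries examined for a value far from the rest, 2 held one; chance alone gives about 1 in 20. COX7A1 made up 5.72% of the COX7A1 and COX7A2 transcripts in the L backfat library of S0385, against 1.74 to 2.15% in the other 3 L backfat libraries. COX8B made up 93.7% of the COX8B and COX8A transcripts in the ET loin library of S0276, against 96.8 to 97.6% in the other 4.

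The muscle form COX8B was also present in libraries that entered none of the main comparisons. It was at 3492 TPM in the library labelled S0355 backfat, whose skeletal muscle markers summed to 56373 TPM, against at most 3.23 TPM in the 9 backfat libraries used. It was at 0.819 TPM in the S0235 brain library and 1.999 TPM in the S0355 brain library, against at most 0.189 TPM in the 8 brain libraries used.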

How the results depend on the processing

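The number of members called between types in backfat (2) was 0 with median-ratio scaling, 0 with 1 transcript per entry and 0 with all 50 libraries, 1 without the L libraries S0377 and S0385 (an alternative chosen after seeing the data), and 0 to 14 with 1 animal left out. In loin (15) it was 36 with median-ratio scaling, 6 of 61 members tested with an E value of at most 1e-50, 0 with all 50 libraries, and 5 to 21 with 1 animal left out (5 without S0326 or S0377, 6 without S0309, 7 without S0385, 8 without S0235, 21 without S0276). In tenderloin (0) it was 0 to 1 with 1 animal left out. Between tenderloin and loin (62) it was 41 of 61 with the stricter E value, 39 with all 50 libraries, 54 to 71 with 1 animal left out, and 64 with the animal as a replicate block. The block gave 83, 87 and 83 called members for muscle against backfat, lymph and brain and 0 for the interaction, so it moved no count by 1.5 times. Single members that changed direction were DMAC2L in loin with 1 transcript per entry (0.16); COX7A2 (0.25 against backfat, 0.38 against lymph and 0.40 against brain), NDUFA7 against lymph (0.18), and ATPAF2 (0.67), ATPSCKMT (0.25) and NDUFAF2 (0.62) against brain, all with median-ratio scaling; and ATPAF2 against brain with 1 transcript per entry (0.87). The alternative with all 50 libraries puts back the libraries left out for their markers. Among them, S0355 loin had adipocyte markers at 12669 TPM and skeletal muscle markers at 26.3 TPM. S0355 backfat had 119 and 56373 TPM. The cause of these changes was not tested, except that the stricter E value tests fewer members. For these alternatives the share of all genes called is given only for loin with median-ratio scaling. A change in another count may thus hold for all genes as well as for the members. Depth is unknown, so low members such as COX6B2 have no stated precision beyond the spread between animals.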
